A study of Ovis aries with 15 samples.

Results

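The transcription factor NF-κB was followed in sheep kidney through 10 genes: its 5 subunits (RELA, RELB, REL, NFKB1 and NFKB2), the 3 subunits of the IκB kinase complex IKK (CHUK, IKBKB and IKBKG) and 2 inhibitors (NFKBIA and TNFAIP3). They were taken by gene symbol from the 25592 genes of the deposited expression table, by a rule that names the genes and sets no threshold on their values, and all 10 were found there. The kidneys came from male Dorper × Small-tailed Han sheep aged 4 months after 21 d of feeding. The CON group received the basal diet. The AFB1 group had aflatoxin B1 (AFB1, a mould toxin) mixed in at 500 µg per kg of dry matter, and AFB1_CUR sheep had the same AFB1 dose plus curcumin (CUR, a turmeric polyphenol) at 800 mg per kg. The trial held 6 sheep per group, penned 2 together, and each group gave 5 RNA-seq libraries. The comparison of AFB1 with CON asks what the toxin changed, and that of AFB1_CUR with AFB1 what the added CUR changed.

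NF-κB acts as a dimer of subunits that is held inactive in the cytoplasm by IκB proteins. Signals from cytokine and Toll-like receptors activate IKK, which marks IκBα for destruction, and the freed dimer enters the nucleus and switches on genes of inflammation and cell survival. Activation is therefore mainly a matter of phosphorylation and localisation, which an mRNA level does not measure, but NFKBIA, TNFAIP3, RELB, NFKB2 and REL are themselves well-known NF-κB target genes, so their mRNA is often read as a record of its activity. In the kidney, both tubular epithelium and resident or infiltrating leukocytes use the pathway.

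The 14 libraries used in the main comparisons held 50255295 to 68747047 counts. The library labelled AFB1 replicate 1, with 56112028 counts, went against its tissue label: its mean log2(FPKM + 1) over 10 hepatocyte markers was 11.49, against 2.08 to 3.70 in the other 14, and over 8 measured proximal tubule markers it was 1.84, against 6.46 to 8.13. UMOD, AQP2 and KCNJ1, which define loop and collecting duct, had 17, 8 and 0 counts there. That library is therefore shown apart, and comparisons use 4 AFB1 libraries unless all 15 libraries are named. AFB1_CUR replicate 2 also stood apart among the remaining 14. Its mean over 6 leukocyte markers was 5.86, against 2.56 to 5.16 in the other 13, and its B cell mean was 4.13, with AFB1 replicate 2 next at 2.41 and the remaining 12 at 0.300 to 1.05.

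The coordinates given in the table equal those of RefSeq genes on the sheep assembly ARS-UI_Ramb_v3.0 for 10 of 10 genes. RELA lies at chr21:40273669-40282306 on the minus strand, RELB at chr14:52484692-52513249 on the plus strand, REL at chr3:63082910-63131981 on the minus strand, NFKB1 at chr6:22538234-22663263 on the minus strand and NFKB2 at chr22:22789993-22797986 on the plus strand. CHUK lies at chr22:20876522-20917290 on the minus strand, IKBKB at chr26:36454066-36505938 on the plus strand and IKBKG at chrX:79898705-79923154 on the minus strand. NFKBIA lies at chr18:43394395-43397347 on the minus strand and TNFAIP3 at chr8:63025484-63041194 on the plus strand. Each value below counts reads over the whole gene, so the isoforms of a gene are not told apart.

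The study also measured NF-κB and IKK mRNA by RT-qPCR, and its primers show which of the subunits those assay names stand for: the transcript listed for the NF-κB pair belongs to NFKB1, and the one listed for the pair named IKκ belongs to IKBKB. Each primer has 20 bases and is given 5′ to 3′, and no part is in capitals because no part is singled out.
NFKB1 forward: tttcaaccggagatgccact
NFKB1 reverse: ggccttcacacacataacgg
IKBKB forward: tggtccttatgaggccggta
IKBKB reverse: gagtccctgagagatggggt
An RNA-seq value for the other 4 NF-κB subunits, the other 2 IKK subunits or the inhibitors is thus a different measurement from those assays.

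The levels of the 10 genes spanned a wide range. In FPKM (fragments scaled to transcript length and library size, which allows genes to be compared per length), the mean over the 14 libraries was 53.9 ± 22.9 (SD, n = 14) for NFKBIA, which encodes IκBα, the inhibitor that binds the dimer. RELA, the subunit p65 that carries the main activation domain, followed at 22.6 ± 4.06, then NFKB2, the precursor of p52 in the non-canonical branch, at 17.1 ± 5.71, and NFKB1, the precursor of p50, at 12.4 ± 2.62. The IKK genes lay close together, with IKBKB (the kinase IKKβ of the canonical branch) at 10.1 ± 1.74, IKBKG (the scaffold NEMO) at 8.66 ± 0.880 and CHUK (the kinase IKKα) at 7.90 ± 0.997. TNFAIP3, which encodes the ubiquitin-editing enzyme A20 that ends the signal, had 3.07 ± 1.96, REL (c-Rel, best known from lymphocytes) 1.84 ± 1.05 and RELB (the partner of p52) 1.54 ± 0.784. Neighbours in this order were separated in 13 or 14 of the 14 libraries, except that IKBKG lay above CHUK in 9 and REL above RELB in 11.

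Of the summed FPKM of the 5 subunits, RELA made up 41.3% ± 3.26, NFKB2 30.3% ± 3.20, NFKB1 22.5% ± 2.42, REL 3.18% ± 0.895 and RELB 2.66% ± 0.718 (SD, n = 14). In the liver-like library the shares in the same order were 46.7%, 22.4%, 24.0%, 2.89% and 4.04%, with RELA above the range of the 14 (34.5% to 45.9%), NFKB2 below its range (26.2% to 36.0%) and the other 3 within theirs. For 7 of the 10 genes that library lay within the range of the 14. CHUK at 4.38 FPKM and IKBKB at 6.54 lay below it, and IKBKG at 10.8 lay above it.

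**Figure D1:**
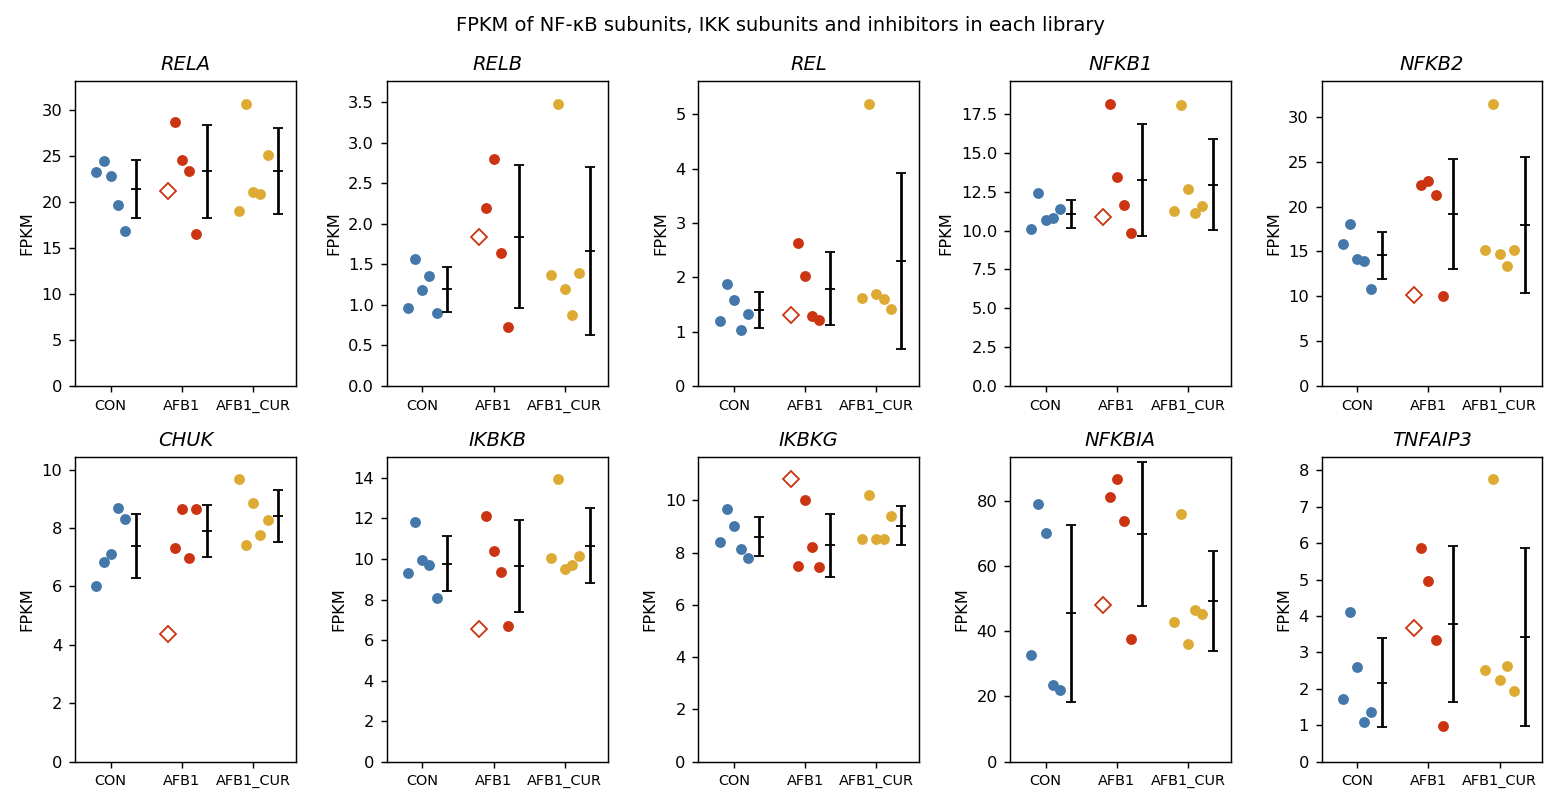
FPKM (vertical axes, each from 0) of the 10 genes in each library of the CON, AFB1 and AFB1_CUR groups. Filled points are the 14 libraries in order of replicate number, the open diamond is the liver-like AFB1 replicate 1, and black bars are the mean ± SD of the filled points (n = 5, 4 and 5). The groups overlap for every gene, and 1 AFB1_CUR library, replicate 2, lies above the others of its group for most genes, for example at 5.20 for REL and 31.5 for NFKB2.

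NFKBIA had the highest level of the inhibitors and varied about 4-fold between the 14 libraries (3.93, highest over lowest). NFKBIA in CON replicates 1 to 5 was 32.7, 79.1, 70.3, 23.6 and 22.05 FPKM. NFKBIA in AFB1 replicates 2 to 5 was 81.2, 86.7, 73.9 and 37.7 FPKM, and 48.1 in the liver-like replicate 1. NFKBIA in AFB1_CUR replicates 1 to 5 was 42.9, 75.9, 36.1, 46.5 and 45.4 FPKM. The CON group split into 2 high and 3 low libraries, 3 of the 4 AFB1 kidney libraries lay among or above the high CON ones, and 4 of the 5 AFB1_CUR libraries lay in between, so that the groups overlapped.

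TNFAIP3 was the most variable of the 10, with a coefficient of variation of 63.9% over the 14 libraries. TNFAIP3 in CON replicates 1 to 5 was 1.72, 4.10, 2.595, 1.084 and 1.35 FPKM. TNFAIP3 in AFB1 replicates 2 to 5 was 5.85, 4.96, 3.34 and 0.979 FPKM, and 3.67 in replicate 1. TNFAIP3 in AFB1_CUR replicates 1 to 5 was 2.50, 7.75, 2.25, 2.63 and 1.93 FPKM. In FPKM the highest value belonged to AFB1_CUR replicate 2 and the lowest to AFB1 replicate 5, a pattern that returned in RELA, RELB, NFKB2, IKBKB and IKBKG. These libraries had the highest and lowest TMM factor of the 14 (1.17 and 0.889), by which the tests scale library size. In log2 CPM (counts scaled to library size, here with TMM) the pattern held for TNFAIP3, RELB and IKBKB. There RELA and NFKB2 were lowest in CON replicate 5, and RELA was highest in AFB1 replicate 2. IKBKG was highest in AFB1 replicate 3 and lowest in AFB1 replicate 2.

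Among the subunits, RELB showed the same spread. RELB in CON replicates 1 to 5 was 0.965, 1.56, 1.18, 1.35 and 0.895 FPKM. RELB in AFB1 replicates 2 to 5 was 2.197, 2.80, 1.64 and 0.721 FPKM, and 1.83 in replicate 1. RELB in AFB1_CUR replicates 1 to 5 was 1.37, 3.48, 1.19, 0.872 and 1.40 FPKM. In AFB1, 3 of the 4 kidney libraries exceeded all 5 CON libraries, and the fourth was the lowest of the 14.

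NFKB2 separated AFB1 replicate 5 from its group even more clearly. NFKB2 in CON replicates 1 to 5 was 15.8, 18.0, 14.2, 13.98 and 10.8 FPKM. NFKB2 in AFB1 replicates 2 to 5 was 22.5, 22.9, 21.3 and 10.1 FPKM, and 10.2 in replicate 1. NFKB2 in AFB1_CUR replicates 1 to 5 was 15.1, 31.5, 14.7, 13.4 and 15.2 FPKM. AFB1 replicates 2 to 4 lay above all CON libraries, AFB1 replicate 5 below them, and all AFB1_CUR libraries but replicate 2 within the CON range.

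REL differed in that AFB1_CUR replicate 2 had no near neighbour. REL in CON replicates 1 to 5 was 1.197, 1.88, 1.59, 1.03 and 1.32 FPKM. REL in AFB1 replicates 2 to 5 was 2.64, 2.02, 1.29 and 1.22 FPKM, and 1.31 in replicate 1. REL in AFB1_CUR replicates 1 to 5 was 1.62, 5.20, 1.70, 1.60 and 1.42 FPKM. Without replicate 2, the AFB1_CUR libraries lay inside the CON range.

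NFKB1 was narrow in CON. NFKB1 in CON replicates 1 to 5 was 10.1, 12.4, 10.7, 10.8 and 11.4 FPKM. NFKB1 in AFB1 replicates 2 to 5 was 18.2, 13.4, 11.6 and 9.82 FPKM, and 10.9 in replicate 1. NFKB1 in AFB1_CUR replicates 1 to 5 was 11.2, 18.0, 12.7, 11.2 and 11.6 FPKM. Only AFB1 replicate 2 and AFB1_CUR replicate 2, at about 18 FPKM, stood clear of the other 12 libraries.

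RELA ranged from 16.8 to 24.5 FPKM in CON, from 16.6 to 28.7 in the AFB1 kidney libraries and from 19.0 to 30.7 in AFB1_CUR. IKBKB ranged from 8.10 to 11.8, from 6.71 to 12.1 and from 9.49 to 13.9 FPKM, and IKBKG from 7.78 to 9.67, from 7.44 to 9.99 and from 8.51 to 10.2 FPKM in the same groups. CHUK ranged from 6.02 to 8.69, from 6.97 to 8.66 and from 7.43 to 9.67 FPKM. CHUK did not share the order of the others, being lowest in CON replicate 1 and highest in AFB1_CUR replicate 1.

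Between AFB1 and CON, none of the 10 genes changed past the screening thresholds of the study, a fold of more than 1.5 with a p below 0.05. The study does not say whether its p was adjusted. Here the unadjusted p was used, and 0 of the 10 reached it. In the background of all 13162 tested genes 1.76% passed both and 664 (5.04%) had such a p, while none passed Benjamini-Hochberg adjustment in edgeR's quasi-likelihood test and DESeq2 called 17 after adjustment. The estimate was above 0 for 8 of the 10 genes, with a median log2 fold change of 0.29, while 53.4% of all tested genes were above 0 and their median was 0.02. TNFAIP3 had the largest estimate, 0.77 (SE 0.49, edgeR unadjusted p = 0.134), or 1.71-fold with a 95% interval from 0.83 to 3.53. NFKBIA followed at 0.61 (SE 0.35, edgeR unadjusted p = 0.102), or 1.53-fold with an interval from 0.91 to 2.58, and RELB at 0.59 (SE 0.36, edgeR unadjusted p = 0.122). These intervals include both no change and more than a doubling, so such a difference could not be told from the spread with 4 and 5 libraries.

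The other subunits had smaller estimates: NFKB2 0.38 (SE 0.23), REL 0.33 (SE 0.33), NFKB1 0.24 (SE 0.13) and RELA 0.11 (SE 0.13). NFKB1 had the lowest p of the 10 (edgeR unadjusted p = 0.0829, adjusted p = 0.957 over all tested genes), and it ran from 0.10 without AFB1 replicate 2 (edgeR unadjusted p = 0.4) to 0.33 without AFB1 replicate 5 (edgeR unadjusted p = 0.0274). For the IKK genes the estimates lay near 0, at 0.09 for CHUK (95% interval -0.24 to 0.43), -0.03 for IKBKB (-0.30 to 0.23) and -0.06 for IKBKG (-0.25 to 0.14). For these 3 genes and for RELA (-0.18 to 0.39) and NFKB1 (-0.04 to 0.52) the interval ended below the screening fold of 1.5. No gene of the 10 separated the groups without overlap, against a background of 1.8% of tested genes.

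The call for the inducible genes turned on single libraries. Without AFB1 replicate 5, RELB (0.84, edgeR unadjusted p = 0.0247), NFKBIA (0.79, edgeR unadjusted p = 0.0462) and TNFAIP3 (1.08, edgeR unadjusted p = 0.0291) passed both thresholds, and so did 3.46% of all genes. Without CON replicate 2, NFKBIA (0.87) and TNFAIP3 (1.09) passed, with a background of 1.97%, and without CON replicate 3 NFKBIA alone (0.84), with a background of 2.1%. Leaving out other single libraries weakened the estimates, which fell as low as 0.33 for RELB, 0.44 for NFKBIA and 0.53 for TNFAIP3. The highest edgeR unadjusted p with 1 library left out was 0.394, 0.213 and 0.333 in that order. With all 15 libraries, so with the liver-like one among the AFB1 group, RELB was called (0.77, edgeR unadjusted p = 0.0479), 10 of 10 estimates were above 0 (54.1% of all genes), and 4.84% of all genes passed. The replicate number as a block brought calls for NFKBIA (0.67, edgeR unadjusted p = 0.0452) and TNFAIP3 (0.68, edgeR unadjusted p = 0.044), with a background of 1.73%, and quality weights in limma a call for RELB (0.70, limma unadjusted p = 0.0236), with 2.32%.

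Between AFB1_CUR and AFB1, 0 of the 10 genes passed the thresholds, against 0.935% of all tested genes, and 0 separated the groups without overlap, against 0.585%. No gene of the whole table passed adjustment in edgeR's quasi-likelihood test, where 303 (2.3%) had an unadjusted p below 0.05 and DESeq2 called 3 after adjustment. The estimate was above 0 for 4 of the 10 genes, with a median of -0.08, and 50.1% of all genes were above 0. NFKBIA had the largest difference, lower in AFB1_CUR with an estimate of -0.57 (SE 0.35, edgeR unadjusted p = 0.128), or 0.67-fold with a 95% interval from 0.40 to 1.14. RELB was estimated at -0.23 (SE 0.36), TNFAIP3 at -0.22 (SE 0.49), NFKB2 at -0.17 (SE 0.23) and NFKB1 at -0.10 (SE 0.13). REL was the exception among the subunits at 0.27 (SE 0.33), and RELA lay at -0.06 (SE 0.13). CHUK, IKBKB and IKBKG had estimates of 0.02, 0.08 and 0.05 with intervals that ended below a 1.5-fold change on either side.

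Without AFB1_CUR replicate 2 the estimates of 7 genes were below 0 and the median was -0.18. NFKBIA then had -0.71 (SE 0.37, edgeR unadjusted p = 0.0746), TNFAIP3 -0.67 (SE 0.45, p from edgeR 0.156), RELB -0.60 (SE 0.31, p from edgeR 0.0723) and NFKB2 -0.40 (SE 0.19, p from edgeR 0.0608), and REL turned to -0.17 (SE 0.21). Still 0 of the 10 were called there, with a background of 1.48%. Quality weights in limma, over all 14 libraries, called RELB (-0.73, limma unadjusted p = 0.0194) and NFKBIA (-0.81, limma unadjusted p = 0.0304) lower in AFB1_CUR, with a background of 2.55%. The group comparisons share libraries (AFB1 enters 2 of them, CON likewise), so a high AFB1 library raises one difference and lowers the other.

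Between AFB1_CUR and CON, 0 of the 10 genes passed, against 1.63% of all tested genes, and 0 separated the groups without overlap, against 0.828%. None of the table passed adjustment in edgeR's quasi-likelihood test, where 723 (5.49%) had an unadjusted p below 0.05 and DESeq2 called 1 after adjustment. The estimate was above 0 for 9 of the 10, with a median of 0.13, against 49.5% of all genes. REL was estimated at 0.61 (SE 0.31, edgeR unadjusted p = 0.0693), or 1.52-fold with a 95% interval from 0.96 to 2.41, TNFAIP3 at 0.56 (SE 0.46) and RELB at 0.37 (SE 0.34). NFKBIA, whose estimate was 0.61 between AFB1 and CON, was at 0.05 (SE 0.33) here. REL rested on AFB1_CUR replicate 2: without that library its estimate was 0.16 (SE 0.20), that of TNFAIP3 0.11 (SE 0.42), that of RELB 0.00 (SE 0.29) and the median of the 10 genes 0.00, with a background of 0.882%. Without AFB1_CUR replicate 5, REL was called at 0.74 (edgeR unadjusted p = 0.035), with a background of 1.98%.

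**Figure D2:**
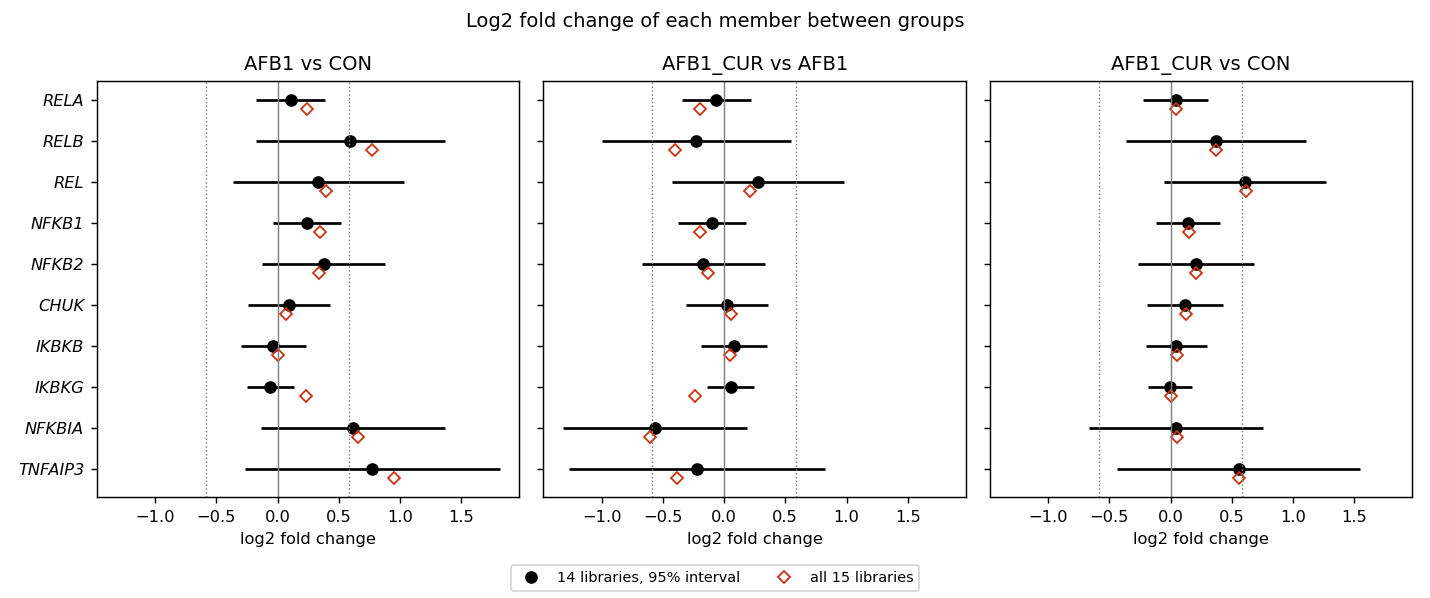
Log2 fold change (horizontal axes, first group minus second) of each gene in the 3 comparisons. Black points and lines are the estimate and 95% interval from the 14 libraries, red diamonds the estimate from all 15, and dotted lines mark a 1.5-fold change. All 30 intervals include 0, and the widest are those of TNFAIP3, RELB, NFKBIA and REL.

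Other genes of the pathway were read from 5 lists by role, of 81 genes in all, of which 78 were in the table and 64 were expressed enough to be tested. The classical activating cytokines were scarce. TNF had 0 to 114 counts in the 14 libraries, IL1A 0 to 94 and IL1B 12 to 75, all too low to test, while the liver-like library had 355 counts of IL1B. The ligand with the highest mean was TNFSF12, the cytokine TWEAK, at 15.0 ± 1.78 FPKM (SD, n = 14). Its estimates were 0.10 between AFB1 and CON and -0.10 between AFB1_CUR and AFB1. LTB, the membrane subunit of lymphotoxin, had a mean of 5.04 ± 9.22 FPKM, with 36.2 in its highest library, which was in AFB1_CUR.

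Of the pathway genes, TNFRSF12A, the receptor of TWEAK, was the only gene called between AFB1 and CON (1 of 64, or 1.56%, beside 1.76% of all genes called in either direction and 0.653% called higher). TNFRSF12A in CON replicates 1 to 5 was 3.72, 3.55, 4.27, 2.07 and 4.31 FPKM. TNFRSF12A in AFB1 replicates 2 to 5 was 11.6, 14.6, 5.76 and 1.91 FPKM, and 21.3 in replicate 1. TNFRSF12A in AFB1_CUR replicates 1 to 5 was 1.14, 9.94, 3.24, 3.59 and 6.97 FPKM. In AFB1, 3 of 4 kidney libraries lay above all CON libraries and replicate 5 lay below them, as for NFKB2. The log2 fold change was 1.19 (SE 0.53, edgeR unadjusted p = 0.0435, adjusted p = 0.957), and with single libraries left out it ran from 0.80 to 1.51. It was no longer called without any of the CON libraries or without AFB1 replicate 2 or 3. Its estimate between AFB1_CUR and AFB1 was -0.84 (SE 0.53, edgeR unadjusted p = 0.139).

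The receptors as a list had estimates above 0 in 8 of 10 genes between AFB1 and CON, with a median of 0.40. TNFRSF1A, the main TNF receptor and the most abundant of them at 43.6 ± 9.05 FPKM, had 0.14, and LTBR, the lymphotoxin receptor, at 15.1 ± 2.36 FPKM, had -0.07. Among 20 adaptors and kinases 15 had estimates above 0, with a median of 0.04. RIPK1, the kinase that links TNF receptors to IKK, at 27.2 ± 6.98 FPKM, had 0.06, and TRAF2, its ubiquitin-ligase partner, at 20.7 ± 4.49 FPKM, had -0.12. Of 15 other IκB family members and negative regulators 7 lay above 0, with a median of -0.04. TNIP1, an A20-binding protein, at 32.6 ± 4.49 FPKM, had -0.17, and PDLIM2, an adaptor for RELA degradation, at 22.9 ± 3.87 FPKM, had -0.29.

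The 15 tested target genes all had estimates above 0 between AFB1 and CON, with a median of 0.20, beside 53.4% of all tested genes above 0 and a median of 0.02, and 0 of the 15 were called, beside 1.76% of all genes. The table held 21 listed targets, and SELE, CCL20, CXCL8, IL6, LCN2 and MMP9 were too low to test. Of these, SELE, IL6, LCN2 and MMP9 had a lower mean FPKM in the AFB1 kidney libraries than in CON. CCL20 and CXCL8 had a higher one. SOD2, the mitochondrial superoxide dismutase and the most abundant target at 117.9 ± 22.4 FPKM, averaged 130.1 ± 19.6 in AFB1 (n = 4) and 96.8 ± 15.2 in CON (n = 5). Its log2 fold change of 0.43 (SE 0.17, edgeR unadjusted p = 0.0211, adjusted p = 0.957) lay below the screening fold, and it was 0.28 (edgeR unadjusted p = 0.102) without AFB1 replicate 5 and 0.53 without CON replicate 5. BCL2L1, the survival protein BCL-xL, at 49.5 ± 9.62 FPKM, had 0.10. Target genes of one pathway in the same libraries are not independent of each other.

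None of the 64 pathway genes was called between AFB1_CUR and AFB1, where 0.935% of all genes were, and the median estimate was 0.75 for the 4 ligands, -0.01 for receptors, -0.01 for adaptors and kinases, 0.04 for the IκB family and negative regulators, -0.07 for targets and 0.00 over the 64 genes. The ligand median rested on AFB1_CUR replicate 2: without it the median was 0.00 and LTB turned from 0.95 to -1.13, while the receptor median was -0.14 and that of targets -0.21. TNFRSF12A was called lower without that library, where 1.48% of all genes were called. IRAK4, PLAU and TNFRSF12A were called without AFB1 replicate 5. With single libraries left out, 122 to 261 of all genes were called in this comparison. Between AFB1_CUR and CON, TNFSF13B, the B cell survival factor BAFF (1.06, SE 0.47, edgeR unadjusted p = 0.0428), and BIRC3, the ubiquitin ligase cIAP2 (0.96, SE 0.45, edgeR unadjusted p = 0.0497), were called higher in AFB1_CUR, 2 of 64 or 3.12%, against 1.63% of all genes called in either direction and 1.05% called higher. TNFSF13B in AFB1_CUR replicates 1 to 5 was 2.58, 17.1, 6.52, 2.81 and 2.47 FPKM and BIRC3 was 6.64, 22.6, 5.18, 3.62 and 4.33 FPKM, beside CON ranges of 1.82 to 4.30 and 2.93 to 6.59. Both values of AFB1_CUR replicate 2 lay far above the rest. Without that library the estimates were 0.36 and 0.31 and neither was called.

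With all 15 libraries, 8 of the 64 pathway genes were called higher in AFB1 than in CON (BCL3, GADD45B, ICAM1, IL1R1, IL1RAP, SOD2, TLR3 and TNFRSF12A), against 3.84% of all genes called higher. Of these, BCL3, GADD45B, IL1RAP and TNFRSF12A were called lower in AFB1_CUR than in AFB1, against 3.39% of all genes called lower and 3.98% called in either direction. GADD45B had 52.4 FPKM in the liver-like library, BCL3 19.0 and IL1RAP 6.30, against 14-library maxima of 13.1, 8.36 and 4.75. Only TNFRSF12A of the 8 was called in the 14 libraries.

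**Figure D3:**
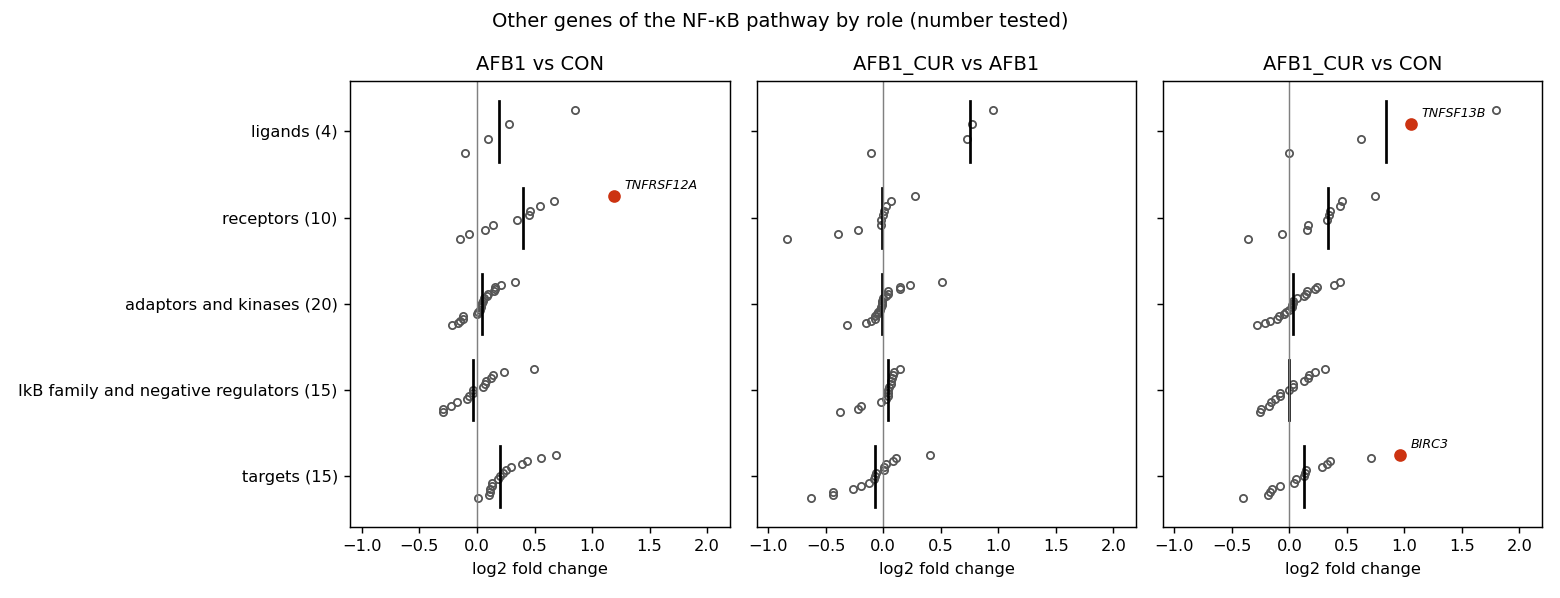
Log2 fold change (horizontal axes) of the 64 tested pathway genes by role list (vertical axes, number tested in brackets) in the 3 comparisons, from 14 libraries. Open circles are genes, black bars list medians, and red points the called genes TNFRSF12A, TNFSF13B and BIRC3. The tested targets lie above 0 between AFB1 and CON (15 of 15), with a median of 0.20, and listed targets too low to test are not shown.

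While the group differences stayed within the spread, the members varied together from library to library. Over the 14 libraries the correlation of log2 CPM (counts scaled to library size) was positive in 35 of the 45 pairs, with a median Pearson's r of 0.58, and 23 pairs passed Benjamini-Hochberg adjustment over the 45 (permutation tests), 22 of them positive. Spearman's rho passed for 19. Over all 86612541 pairs of tested genes, 49.9% were positive and 4.56% had an r as high as the lowest positive r that passed. The libraries of a group share a diet, and all share any difference in tissue composition, so these are associations within this set of libraries.

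The tightest pair was RELB with NFKB2, the dimer partners of the non-canonical branch (r = 0.92, rho = 0.89, permutation p = 1e-05 and 6e-05, adjusted p = 0.00045 and 0.0027, where 1e-05 is the smallest p that 100000 permutations can give). It held at 0.85 without the 2 libraries farthest in RELB (AFB1 replicate 3 and AFB1_CUR replicate 2) and at 0.90 after group means were removed. NFKB2 with TNFAIP3 had r = 0.86 (rho = 0.75, permutation p = 0.00012 and 0.00272, adjusted p = 0.0018 and 0.0165), and 0.77 without the 2 farthest libraries. The inhibitors NFKBIA and TNFAIP3 had r = 0.83 (rho = 0.85, permutation p = 0.00034 and 0.00024, adjusted p = 0.00306 and 0.0054), and 0.80 without CON replicate 5 and AFB1 replicate 3. RELA with NFKB2 had r = 0.83 (rho = 0.76, permutation p = 0.00019 and 0.00224, adjusted p = 0.00214 and 0.0165), and 0.72 without the 2 farthest.

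REL with NFKB1 (r = 0.81, rho = 0.70, permutation p = 0.00271 and 0.00734, adjusted p = 0.00871 and 0.0270) fell to 0.57 without AFB1 replicate 2 and AFB1_CUR replicate 2, and REL with NFKB2 (r = 0.68, rho = 0.45, permutation p = 0.00542 and 0.109, adjusted p = 0.0130 and 0.169) to 0.31. The relation of REL with NFKB2 thus rested on those libraries. REL with TNFAIP3 (r = 0.82, rho = 0.77, permutation p = 2e-05 and 0.00204, adjusted p = 0.00045 and 0.0165) kept 0.78 without them.

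The IKK genes went 3 ways. IKBKB moved with the subunits and inhibitors, for example with TNFAIP3 (r = 0.78, rho = 0.71, permutation p = 0.00065 and 0.00526, adjusted p = 0.00418 and 0.0215, and r = 0.68 without the 2 farthest libraries) and NFKB2 (r = 0.76, rho = 0.68, permutation p = 0.00124 and 0.0091, adjusted p = 0.0062 and 0.0292, and r = 0.73). CHUK was negatively correlated with 8 of the other 9 genes, most with RELA (r = -0.76, rho = -0.81, permutation p = 0.00166 and 0.00073, adjusted p = 0.00679 and 0.0109), and -0.79 without CON replicate 5 and AFB1 replicate 5. IKBKG passed with none of the other 9. Its r with RELA was 0.07 (rho = 0.27, permutation p = 0.822 and 0.359, adjusted p = 0.860 and 0.394) and -0.28 without the 2 libraries farthest in RELA, but 0.73 when AFB1 replicate 2 and AFB1_CUR replicate 2 were left out, and its r with TNFAIP3 moved from 0.06 (rho = 0.33, permutation p = 0.859 and 0.253, adjusted p = 0.878 and 0.311) to 0.71.

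**Figure D4:**
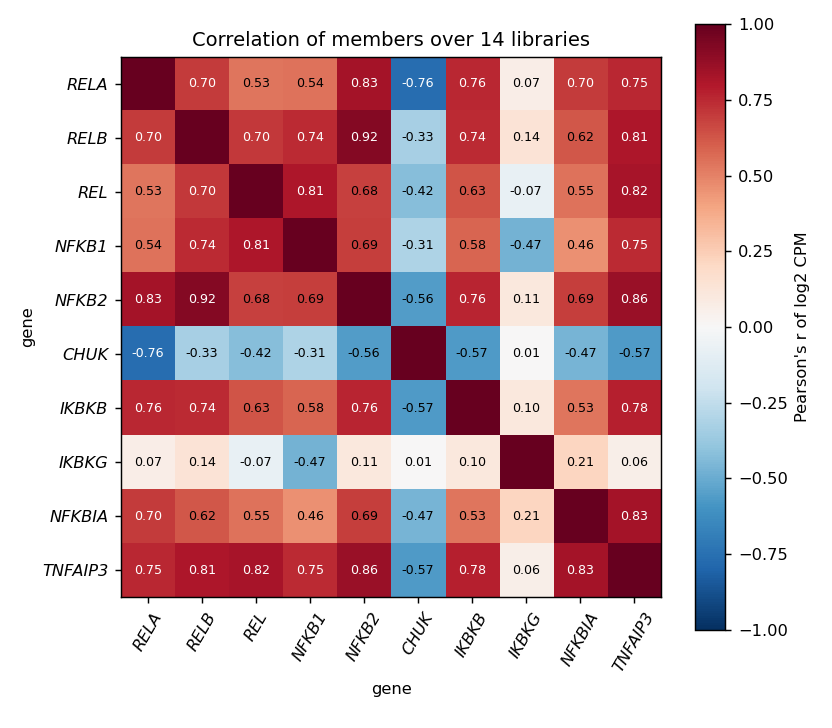
Pearson's r of log2 CPM for each pair of the 10 genes over 14 libraries, in colour from -1 (blue) to 1 (red) with the value in each square. The subunits, IKBKB and the inhibitors form a red block, CHUK is negative with 8 of the other 9 genes, and IKBKG lies between -0.47 and 0.21.

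The members also moved with markers of cell types, for which 7 lists were compared with the 10 genes (70 relations, adjusted together). In bulk tissue, fewer cells of a type and less RNA per cell cannot be told apart. The proximal tubule mean was lower where NF-κB genes were higher: 8 of 10 members were negatively related after adjustment, and CHUK positively. By comparison 15.0% of all tested genes had an r as low as the weakest of those 8. The values were r = -0.89 for NFKB2 (rho = -0.84, permutation p = 3e-05 and 0.00025), -0.87 for RELA (rho = -0.86, permutation p = 6e-05 and 0.00012), -0.84 for TNFAIP3 (rho = -0.83, permutation p = 0.00028 and 0.00047), -0.78 for NFKBIA (rho = -0.79, permutation p = 0.00129 and 0.00121) and 0.67 for CHUK (rho = 0.67, permutation p = 0.0093 and 0.0105). Adjusted p-values were 0.0014 to 0.0169 for r and 0.0042 to 0.0261 for rho. Without CON replicate 5 and AFB1 replicate 4, the farthest in that mean, they were -0.85, -0.86, -0.87, -0.68 and 0.71.

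The leukocyte mean was positively related to 8 members and negatively to CHUK after adjustment, and 15.1% of all tested genes had an r as high as the weakest of the 8. RELA had r = 0.83 (rho = 0.83, permutation p = 0.00023 and 0.00044, adjusted p = 0.00185 and 0.00658) and kept 0.85 without AFB1 replicate 2 and AFB1_CUR replicate 2, the farthest libraries. REL had r = 0.87 (rho = 0.57, permutation p = 0.00052 and 0.0343, adjusted p = 0.0028 and 0.0715) and fell to 0.46 without them, and NFKB1 fell from 0.79 (rho = 0.49, permutation p = 0.00471 and 0.0746, adjusted p = 0.0106 and 0.107) to 0.20, so these 2 relations rested on those libraries. Macrophage and myeloid markers were closest to RELA (r = 0.91, rho = 0.89, permutation p = 4e-05 and 9e-05, adjusted p = 0.0014 and 0.0042), with 0.90 without the 2 farthest libraries. The T cell mean was positively related to 8 members and negatively to 1 after adjustment, the B cell mean to 7 and 1, the myeloid mean to 8 and 1, the endothelial mean to 5 and 1, and the loop and collecting duct mean to 0. The values of r with the loop and collecting duct mean depended on AFB1_CUR replicate 2. Without it r went from 0.34 to 0.68 for RELA, from 0.22 to 0.64 for TNFAIP3 and from -0.28 to -0.62 for CHUK. Without AFB1_CUR replicates 2 and 5, the farthest libraries, r was 0.69, 0.87 and -0.72. Whether any member would pass adjustment without these libraries was not tested. Past the smallest size of r that passed in each list, 15.5% of all tested genes were positively related to the T cell mean, 15.1% to the B cell mean, 11.3% to the myeloid mean and 12.1% to the endothelial mean. By Spearman's rho 6 members passed for the proximal tubule mean, 5 for the leukocyte mean, 5 for the T cell mean, 7 for the B cell mean, 6 for the myeloid mean and 2 for the endothelial mean. Past the smallest size of rho that passed in each, in either direction, were 17.1%, 16.6%, 19.6%, 21.98%, 17.7% and 11.03% of all tested genes in the same order. Several of these relations rested on AFB1 replicate 2 and AFB1_CUR replicate 2. For the B cell mean, without them r went from 0.91 to 0.39 for REL and from 0.78 to -0.08 for NFKB1, and from 0.68 to 0.35 for RELB. The values of REL and NFKB1 went from 0.83 to 0.41 and from 0.77 to 0.11 for the T cell mean, and from 0.79 to 0.40 and from 0.71 to 0.15 for the myeloid mean. IKBKG moved the other way, from -0.13 to 0.72 for the leukocyte mean, from -0.20 to 0.70 for the B cell mean and from -0.05 to 0.70 for the myeloid mean. For the endothelial mean the farthest libraries were CON replicate 5 and AFB1 replicate 5. Without them r went from 0.76 to 0.31 for IKBKB, from 0.64 to 0.35 for NFKB2 and from 0.59 to 0.35 for RELB. That of RELA went from 0.80 to 0.63 and that of TNFAIP3 from 0.72 to 0.55.

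The ranges of these markers overlapped between the groups, and their group differences were not tested. The leukocyte mean ranged from 2.56 to 4.04 in CON, from 3.00 to 5.16 in the AFB1 kidney libraries and from 3.44 to 5.86 in AFB1_CUR, and the proximal tubule mean from 7.08 to 8.13, from 6.46 to 7.98 and from 6.47 to 7.85. AFB1 replicate 5, lowest in FPKM for 7 of the 10 genes, had the lowest leukocyte mean of its group (3.00) and the highest proximal tubule mean (7.98). In TMM log2 CPM it was lowest only for RELB, IKBKB and TNFAIP3. AFB1_CUR replicate 2, highest in FPKM for 7 of the 10 genes, had the highest leukocyte mean of all (5.86). In TMM log2 CPM it was highest only for RELB, REL, NFKB2, IKBKB and TNFAIP3. The part of cell composition in the levels of the 10 genes was not tested.

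**Figure D5:**
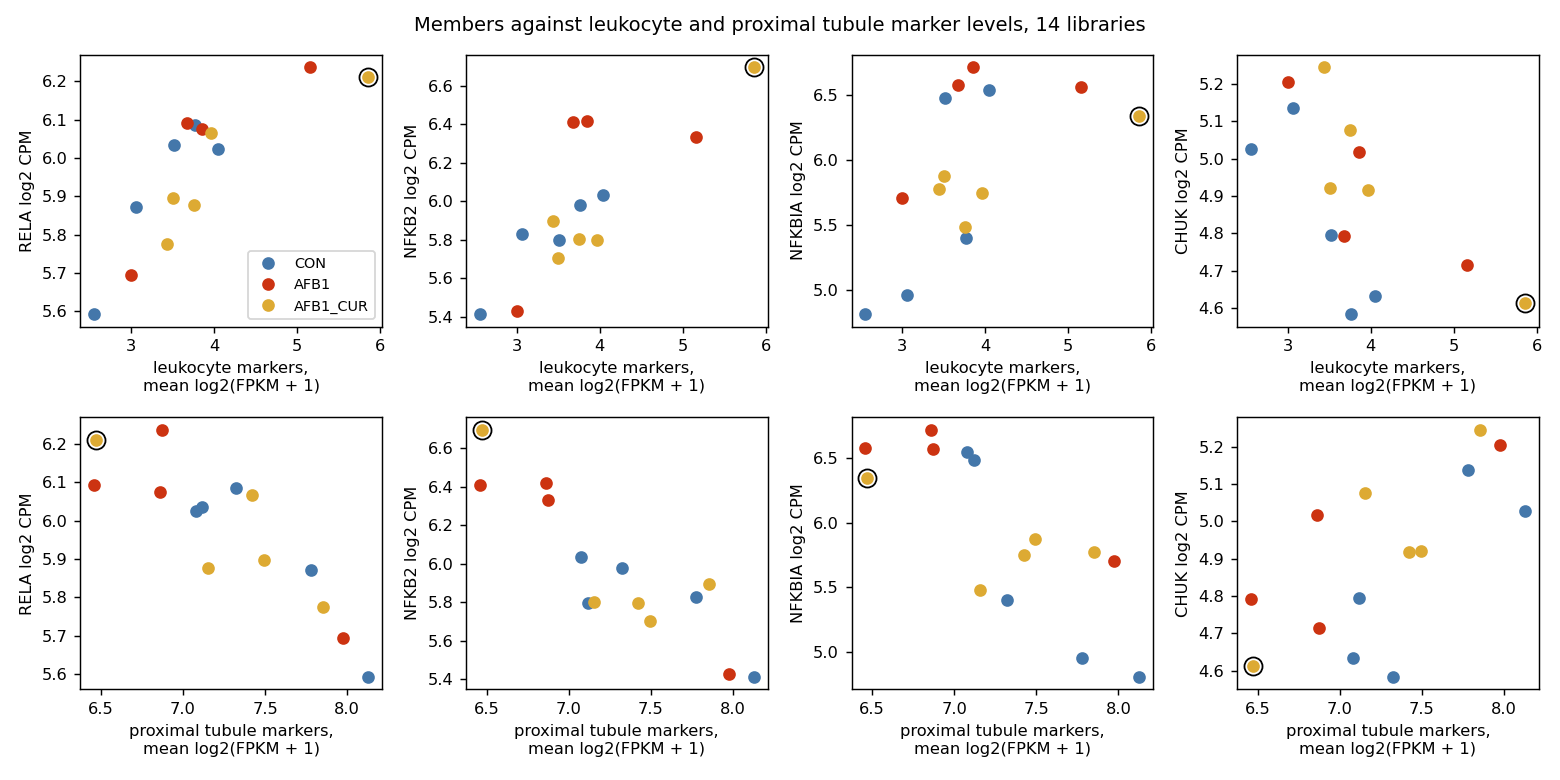
Log2 CPM of RELA, NFKB2, NFKBIA and CHUK (vertical axes) against the mean log2(FPKM + 1) of leukocyte markers (upper row) and proximal tubule markers (lower row) in 14 libraries, coloured by group. The ringed point is AFB1_CUR replicate 2. RELA and NFKB2 are higher where leukocyte markers are higher and lower where proximal tubule markers are higher (r = 0.83 and 0.81, -0.87 and -0.89), and CHUK does the opposite.

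Over all tested genes, those most like RELA across the 14 libraries were SHKBP1 (r = 0.96), C1QA, the complement component made by macrophages (0.96), SH3BP1 (0.96), CYTH1 (0.95) and GNAI2, an inhibitory G protein subunit (0.95). REL was most like BAZ1A (0.97), CBX5, a heterochromatin protein (0.96), UBP1 (0.95), ZNF217 (0.94) and PRR14L (0.94). NFKBIA was most like DDIT4, a stress-induced inhibitor of mTORC1 (0.91), LOC101107489 (0.90), S1PR1, a receptor for sphingosine 1-phosphate (0.88), LOC114118110 (0.87) and LY96, the TLR4 co-receptor MD-2 (0.86). The 3 lists share no gene, and such values, picked from 13162 genes, are given as a description over 14 libraries.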

How the data were processed

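Total RNA from kidney was sequenced as poly(A)-selected, strand-marked libraries, paired-end, on an Illumina NovaSeq, with 15 libraries in 3 groups. The authors removed adapters and low-quality reads, and the submitters' processing notes name cutadapt 1.9, HISAT2 2.2.1, StringTie 2.1.6, DESeq2 and edgeR without their roles. The deposited table held a count and an FPKM for each gene, and FPKM is normalized by the authors to transcript length and library size. Which counter, strand setting and build were used is not given in the sources used here. Groups and replicate numbers were taken from the sample titles, since the treatment field counts upward within a group. The labels do not tie libraries to animals or pens, so p-values measure the spread between libraries.

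Counts were tested with edgeR 4.0.16 (quasi-likelihood, TMM, R 4.3.3) in a model of all 3 groups over the 14 libraries other than AFB1 replicate 1, for the 13162 genes that reached 1 FPKM in 5 or more libraries, with Benjamini-Hochberg adjustment over all of them. A gene was called where its fold exceeded 1.5 with an unadjusted p below 0.05. These cut-offs are those of the screening in the study, which does not say whether its p was adjusted. Alternatives used all 15 libraries, RLE size factors, no filter, DESeq2 1.42.0, the replicate number as a block, only the compared groups, limma 3.58.1 with voom quality weights, and 1 library left out at a time. A further setting without AFB1 replicate 2 and AFB1_CUR replicate 2 was chosen after seeing the data. Correlations used TMM log2 CPM of the genes and 100000 permutations (two-sided). The marker means they were set against were of log2(FPKM + 1), without TMM scaling. The fits were tested on simulated data. The members, pathway lists and marker lists were chosen with earlier results of these data known. Named beside the members were pathway genes called in the 14 libraries, the 2 of highest mean FPKM in each list, and the 5 genes most like RELA, REL and NFKBIA. TNF, IL1A, IL1B, IRAK4, PLAU, the targets too low to test and the genes called with all 15 libraries were named after their values were seen.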

Additional observations from a re-analysis of the deposited data

Results flagged for a closer look

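In 8 of the 40 sets of 4 or 5 libraries examined (each gene in each group, AFB1 with and without replicate 1), 1 library lay so far from the nearest other that Dixon's test at 95% singled it out. Chance alone does so in about 1 in 20 sets, and the 10 genes are correlated, so these are not independent. AFB1_CUR replicate 2 was the highest library in 7 of the 8, with 3.48 FPKM of RELB (others 0.872 to 1.40), 5.20 of REL (1.42 to 1.70), 18.0 of NFKB1 (11.2 to 12.7), 31.5 of NFKB2 (13.4 to 15.2), 13.9 of IKBKB (9.49 to 10.1), 75.9 of NFKBIA (36.1 to 46.5) and 7.75 of TNFAIP3 (1.93 to 2.63). The remaining one was NFKB2 in AFB1 replicate 5, the lowest of the 4 kidney libraries at 10.1 FPKM (others 21.3 to 22.9). Dixon's test was run on FPKM, without the TMM scaling of the fits. That scaling lowers AFB1_CUR replicate 2 (factor 1.17) and raises AFB1 replicate 5 (factor 0.889) relative to the other libraries. The cause of these values was not tested.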

How the results depend on the processing

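With 4 or 5 libraries a group, the standard errors of the 10 genes ran from 0.09 to 0.49 on the log2 scale, and the number of called members moved with the setting. Between AFB1 and CON it was 0 in the 14 libraries, 1 (RELB) with all 15, 1 (RELB) with voom quality weights, 2 (NFKBIA and TNFAIP3) with the replicate number as a block, and 0 to 3 when libraries were left out in turn. Between AFB1_CUR and AFB1 it was 0, but 2 (RELB and NFKBIA, both lower) with voom quality weights and 0 to 0 with libraries left out, and between AFB1_CUR and CON 0, and 0 to 1 with libraries left out. RLE size factors, no filter, DESeq2 and the compared groups alone left 0 members called in each comparison. With the compared groups alone, NFKBIA had an edgeR unadjusted p below 0.05 between AFB1_CUR and AFB1, but its fold stayed short of 1.5. After adjustment 0 members passed there. The number of called pathway genes, 1, 0 and 2 of 64 in the order of these comparisons, ran from 0 to 3 in each with libraries left out. The replicate numbers share only a number: same-numbered libraries of different groups correlated at -0.28 to 0.55 in 13 pairs, 5 of them over 0.1, and 4 of 14 libraries correlated best with their own number. The block gave 0 called members in the other comparisons. The cause of these shifts was not tested.

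The number of all genes called, 232, 123 and 214 in the order of the comparisons above, became 639, 525 and 131 with all 15 libraries and 867, 707 and 928 without the filter, 336 for the second with voom quality weights, 207 for the second and 115 for the third without AFB1 replicate 2 and AFB1_CUR replicate 2, and ran from 204 to 454, 122 to 261 and 115 to 305 with libraries left out.

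Between AFB1 and CON, IKBKB became 0.001 and IKBKG 0.236 with all 15 libraries, and IKBKG 0.027 without the 2 replicates 2. In AFB1_CUR against AFB1, IKBKG became -0.235 with all 15 and -0.022 without the 2 replicates 2, and REL -0.049, IKBKB -0.007 and IKBKG -0.014 with voom quality weights. Between AFB1_CUR and CON, IKBKG became 0.002 with all 15 and 0.000 with RLE or DESeq2. With voom quality weights RELA became -0.042, RELB -0.036, NFKB2 -0.036, IKBKB -0.053 and NFKBIA -0.119, and without the 2 replicates 2 RELA became -0.014, NFKB2 -0.012, IKBKB -0.005, IKBKG 0.004 and NFKBIA -0.090. With single libraries left out, the ranges that crossed 0 were, between AFB1 and CON, CHUK -0.004 to 0.175, IKBKB -0.122 to 0.071 and IKBKG -0.139 to 0.019. Those for AFB1_CUR against AFB1 were RELA -0.163 to 0.009, RELB -0.597 to 0.037, REL -0.173 to 0.471, NFKB1 -0.190 to 0.043, CHUK -0.054 to 0.122, IKBKB -0.025 to 0.169, IKBKG -0.022 to 0.135 and TNFAIP3 -0.671 to 0.031. Between AFB1_CUR and CON they were RELA -0.032 to 0.087, NFKB2 -0.017 to 0.277, IKBKB -0.011 to 0.094, IKBKG -0.036 to 0.016 and NFKBIA -0.126 to 0.298.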

Other observations

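The annotation column of the table assigns 214 genes to the KEGG NF-κB pathway, among them 9 of the 10 members (not REL), and 95 of them were tested. This list was read after the file was seen. Between AFB1 and CON, 6 were called higher and 0 lower, or 6.32% against 1.76% of all genes called in either direction and 0.653% called higher. All 6 carry LOC identifiers and are annotated as variable segments or constant regions of immunoglobulins, a multigene family whose reads can be shared between copies, so that their single values are uncertain. With all 15 libraries 7 were called higher, against 3.84% of all genes, and these were CD14, ICAM1, IL1R1, LBP, RELB, LOC101114285 and LOC101108522, the last being the only 1 of the 6 that was still called. Between AFB1_CUR and AFB1, 1 was called, or 1.05% against 0.935% of all genes. The comparison of AFB1_CUR with CON called 9 higher, or 9.47% against 1.63% of all genes called in either direction and 1.05% called higher, with BIRC3, BLNK (a B cell adaptor), TNFSF13B and 6 LOC genes. The B cell marker mean beside these counts was 0.300 to 1.05 in CON, 0.523 to 2.41 in the AFB1 kidney libraries and 0.652 to 4.13 in AFB1_CUR, and its part in them was not tested.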
